A study of Mus musculus with 6 samples.

Results

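The genes described here are 10 components of insulin and insulin-like growth factor (IGF) receptor signalling in mouse pancreatic beta-cells, out of 13535 genes measured. They were taken by name, with earlier results of these data known. They are the receptor genes *Insr* and *Igf1r*, the adaptor genes *Irs1* and *Irs2*, the kinase genes *Pdpk1*, *Akt1* and *Akt2*, and the downstream genes *Foxo1*, *Tsc2* and *Mtor*. All 10 were in the table.

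The study asked whether signals from alpha- and delta-cells influence beta-cells. Islets of wild-type (WT) 12-week-old C57BL/6JRj male mice were dispersed, and their cells were sorted by flow cytometry. The sorted cells were reaggregated for 5 days in RPMI 1640 with 10% serum. Pseudo-islets were built from sorted beta-cells together with alpha- and delta-cells, and pseudo-beta from the sorted beta-cells alone. Beta-cells were then sorted again by flow cytometry from both kinds of cluster, and 5 ng of their RNA was sequenced. There were 3 libraries of each group, 1 of each in the experiments numbered 35, 36 and 37. Neither group was given any added agent or carried an altered allele, so the 2 groups differ by the cells present in culture. Values are normalized counts, which are estimated reads per gene scaled between libraries, and their total was 17994346 in the lowest library and 19635287 in the highest. How many reads stand behind them is unknown.

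Insulin and IGFs bind receptor tyrosine kinases on the cell surface, which phosphorylate the IRS adaptors. These recruit PI3-kinase, whose lipid product brings PDK1 and AKT to the membrane, and active AKT keeps FoxO1 out of the nucleus and relieves the TSC1-TSC2 brake on mTOR complex 1. In beta-cells the pathway is known for its part in cell mass and survival, and IRS2 in particular is needed for beta-cell mass in mice and is induced by cAMP.

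None of the 10 genes differed between the groups at the threshold used, an adjusted p of 0.05 (limma, adjusted over the whole table by Benjamini-Hochberg), which 0.0591% of all genes passed. Genes past this threshold are referred to as called. The pair of receptors stood nearest to it and lay in opposite directions. *Igf1r* was fitted as 1.43-fold higher in beta-cells from pseudo-islets, and *Insr* as 1.54-fold higher in pseudo-beta. The fitted differences of the 8 genes below the receptors were at most 1.28-fold. The median log2 fold change (pseudo-islets over pseudo-beta) of the 10 genes was -0.04, beside 0.01 over all genes. The lowest adjusted p of the 10 was 0.781 in limma, for *Igf1r*.

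The experiment numbers were taken to pair the libraries, so limma was also run with the experiment as a replicate block. Of all genes, 0.539% passed with the block, and of the 10 genes 0 passed, the lowest adjusted p in limma being 0.095, for *Igf1r*. At an unadjusted p under 0.05, *Insr* and *Igf1r* passed in either fit, which is 2 of 10 genes. That threshold was passed by 5.40% of all genes without the block and by 11.9% with it. Groups that did not overlap were found for 1 of the 10 genes, *Igf1r*, and for 10.8% of all genes.

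**Figure D1:**
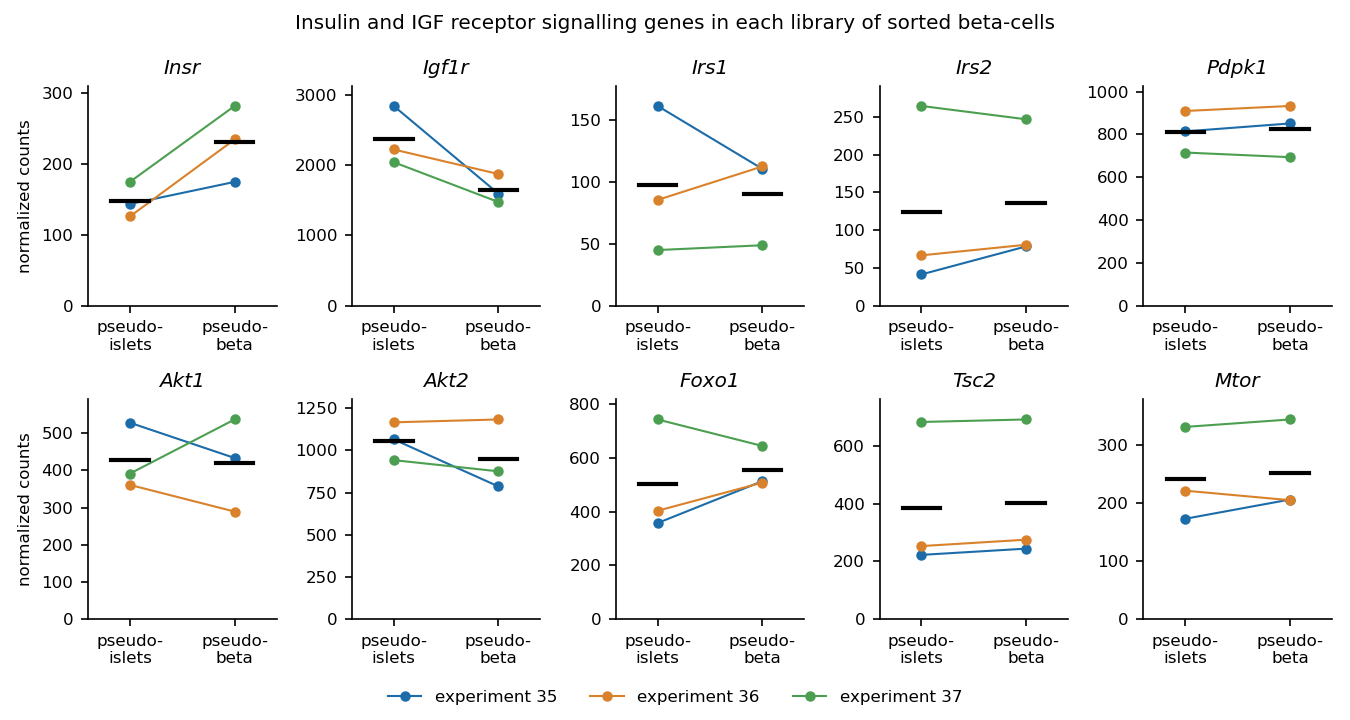
Normalized counts (y axis, linear and starting at 0) of each of the 10 genes in the 6 libraries, with the groups on the x axis, lines joining the 2 libraries of one experiment and black bars at the group means. The lines go down from pseudo-islets to pseudo-beta in 3 of 3 experiments for *Igf1r* and up in 3 of 3 for *Insr* and *Tsc2*, and experiment 37 lies above the other experiments in both groups for *Irs2*, *Foxo1*, *Tsc2* and *Mtor*.

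*Igf1r*, which encodes the receptor for IGF-1 and IGF-2, lies on chromosome 7 (67952827 to 68233668, plus strand, GRCm38) and overlaps no other annotated gene. It was at 2847, 2226 and 2045 normalized counts in the 3 pseudo-islets libraries (experiments 35, 36 and 37) and 1595, 1876 and 1476 in the pseudo-beta libraries. The lowest pseudo-islets library thus lay above the highest pseudo-beta library. Group means were 2372 ± 421 in pseudo-islets and 1649 ± 205 in pseudo-beta (SD, n = 3 each). Within experiments 35, 36 and 37 the log2 difference was 0.84, 0.25 and 0.47. The fitted log2 fold change was 0.52 ± 0.16 (standard error), with a 95% interval of 0.15 to 0.88, and with the block the standard error was 0.12 and the interval 0.26 to 0.78. Experiment 36 had the smallest difference, and when it was left out of the fit with the block *Igf1r* passed, with a log2 fold change of 0.65 and an adjusted p of 0.0263 in limma. The call therefore turned on 1 experiment.

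*Insr*, the insulin receptor gene, lies on chromosome 8 (3122061 to 3279617, minus strand) and overlaps the antisense gene *Gm16180* and the pseudogene *Vmn2r-ps88*, both on the opposite strand. Whether reads were counted by strand was not given in the sources used here, so reads of overlapping genes may be mixed. *Insr* was at 143.4, 125.8 and 174.6 normalized counts in the 3 pseudo-islets libraries (experiments 35, 36 and 37) and 174.6, 234.5 and 281.9 in the pseudo-beta libraries. It was lower in pseudo-islets in 3 of 3 experiments, and across experiments the groups barely overlapped, the highest pseudo-islets library (174.617) lying just above the lowest pseudo-beta library (174.61). Group means were 148 ± 24.8 and 230.3 ± 53.8 (SD, n = 3 each). The fitted log2 fold change was -0.62 ± 0.26 (standard error), with a 95% interval of -1.20 to -0.04. Its adjusted p was 0.901 in limma without the block and 0.299 with it.

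Because the receptors differed in opposite directions, the ratio of *Igf1r* to *Insr* normalized counts was taken within each library, a measure chosen after the values were seen and so given with no test. Gene length and library scaling cancel when this ratio is compared between libraries. The ratio was 19.9, 17.7 and 11.7 for pseudo-islets (experiments 35, 36 and 37) and 9.133, 7.998 and 5.237 for pseudo-beta. Its level shifted from one experiment to another, whereas the distance between the groups was nearly the same in each. On the log2 scale the ratio was higher in pseudo-islets by 1.12, 1.15 and 1.16, a mean of 1.14 ± 0.02 (SD, n = 3 experiments), which is 2.21-fold. Each receptor alone was less even, with log2 differences of 0.84, 0.25 and 0.47 for *Igf1r* and -0.28, -0.89 and -0.69 for *Insr*. Because the ratio was picked from these same values, its small SD does not measure how closely other experiments would repeat it.

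**Figure D2:**
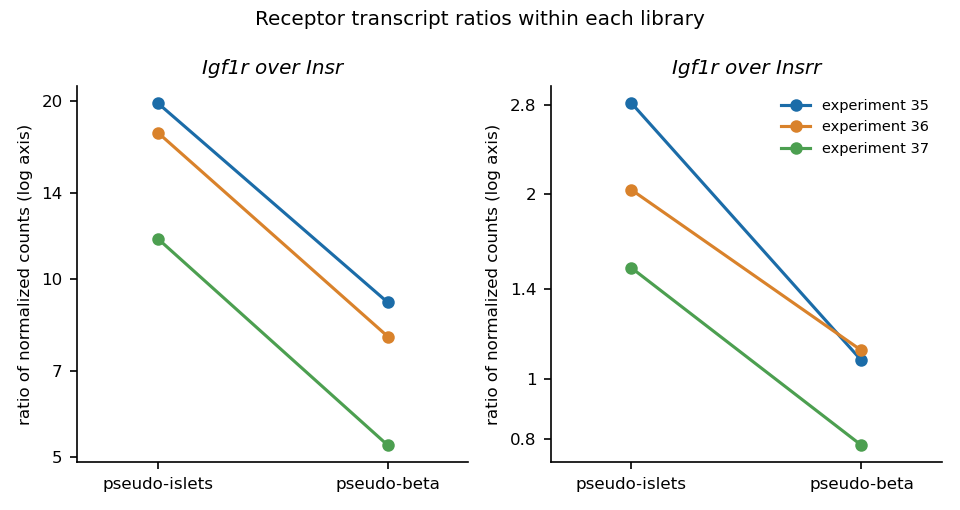
Ratio of normalized counts of *Igf1r* over *Insr* (left) and of *Igf1r* over *Insrr* (right) within each library, on log axes, with lines joining the libraries of one experiment. The 3 lines for *Igf1r* over *Insr* run nearly parallel, with log2 differences of 1.12, 1.15 and 1.16, and those for *Igf1r* over *Insrr* differ by 1.39, 0.87 and 0.96.

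*Irs1* and *Irs2* encode the main adaptors that the receptors phosphorylate. *Irs1* (chromosome 1, 82233101 to 82291416, minus strand) was at 161, 85.3 and 44.8 normalized counts in the 3 pseudo-islets libraries (experiments 35, 36 and 37) and 110.4, 112 and 48.7 in the pseudo-beta libraries. *Irs2* (chromosome 8, 10984681 to 11008458, minus strand) was at 41.3, 66.6 and 264.8 in the pseudo-islets libraries and 78.5, 80.6 and 247.1 in the pseudo-beta libraries. The groups overlapped for both adaptors, and the experiments lay farther apart than the groups: *Irs1* was lowest and *Irs2* highest in experiment 37, whichever the group. Between the highest and lowest experiment the log2 difference was 1.49 for *Irs1* and 2.15 for *Irs2*. The fitted log2 fold change between the groups was 0.01 with a standard error of 0.49 for *Irs1* and -0.36 with a standard error of 0.65 for *Irs2*. The block reduced these errors to 0.31 and 0.29, and the intervals of -0.66 to 0.69 and -0.9995 to 0.28 still hold changes of over 1.5-fold. For *Irs2* the within-experiment differences were -0.91, -0.27 and 0.10, so its direction was not shared by the 3 experiments. The sign of *Irs1* turned, to -0.0471, when the libraries were scaled without the 10 most abundant genes. Either adaptor overlaps 1 annotated gene on the opposite strand, *Gm9747* for *Irs1* and *9530052E02Rik* for *Irs2*.

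Promoter sequence (RefSeq, GRCm38.p6, 250 bases before to 50 after a transcript start) was matched for 9 of the 10 genes, in 14 windows; none was matched for *Insr*. Motifs were searched on both strands. The CREB site TGACGTCA was in 0 of the 14 windows and in 1.79% of all 32851 windows. Its core TGACG was in 4 of the 14 windows (*Akt2*, *Irs1* and *Pdpk1*) and in 20.8% of all windows. The FoxO core TGTTTAC was in 1 of the 14 windows (*Akt1*) and in 3.65% of all. Added after the sequences had been seen, CACGTG, an E-box, was in 2 of the 14 windows (*Irs1* and *Irs2*) and in 7.15% of all. GGGCGG, a GC-box also added then, was in 8 of the 14 windows, of 8 genes, and in 35.7% of all. In *Irs1* the E-box shares bases with a TGACG match on the opposite strand. The stretches printed here are those around the E-box that both adaptor genes hold, and around the GC-boxes of *Igf1r*, the gene whose groups did not overlap. Capitals mark the E-box in *Irs1* and *Irs2* and the GC-boxes in *Igf1r*.
*Irs1*, chr1:82291502-82291601, minus strand: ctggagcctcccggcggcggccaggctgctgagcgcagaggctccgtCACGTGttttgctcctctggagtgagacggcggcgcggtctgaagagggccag
*Irs2*, chr8:11008930-11009020, minus strand: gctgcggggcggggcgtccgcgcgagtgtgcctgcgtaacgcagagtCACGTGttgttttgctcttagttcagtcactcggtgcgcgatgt
*Igf1r*, chr7:67952174-67952256, plus strand: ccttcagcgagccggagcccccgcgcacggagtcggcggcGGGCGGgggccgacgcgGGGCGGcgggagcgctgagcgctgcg
Counted from the RefSeq transcript start, the first base of the E-box lies 115 bases before in *Irs1* and 44 in *Irs2*. That of the first GC-box lies 43 bases before the RefSeq transcript start of *Igf1r*. The RefSeq starts of these genes differ from the ends of the gene positions given above, which come from GENCODE M21. These matches are descriptions of letters in the windows and were compared with no value.

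*Pdpk1*, *Akt1* and *Akt2* encode the kinase that phosphorylates AKT in its activation loop and 2 AKT isoforms. *Pdpk1* (chromosome 17, 24073680 to 24150924, minus strand) was at 814, 909 and 715 normalized counts in the pseudo-islets libraries and 851, 933 and 693 in the pseudo-beta libraries, in the order of experiments 35, 36 and 37. Its 2 libraries of one experiment lay closer to each other than to those of the other experiments, and its log2 fold change was -0.02 (95% interval -0.41 to 0.37). *Akt1* (chromosome 12, 112653821 to 112674884, minus strand) was at 528, 361 and 391 in the pseudo-islets libraries and 433, 289 and 537 in the pseudo-beta libraries, higher in pseudo-islets in 2 of 3 experiments. Its fitted log2 fold change was 0.05 (-0.52 to 0.62), and -0.0088 when the libraries were scaled without the 10 most abundant genes. *Akt2* (chromosome 7, 27591552 to 27640826, plus strand) was at 1066, 1167 and 942 in the pseudo-islets libraries and 786, 1184 and 876 in the pseudo-beta libraries, and its log2 fold change was 0.17 (-0.24 to 0.58). The groups overlapped for all 3 kinases. For *Pdpk1* and *Akt2* the 95% interval lay within a 1.5-fold change in either direction, already without the block. *Pdpk1* overlaps a pair of non-coding genes, 1 of them antisense, *Akt1* a miRNA gene, and *Akt2* no annotated gene.

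*Foxo1* encodes the transcription factor that AKT holds out of the nucleus. It lies on chromosome 3 (52268336 to 52353221, plus strand) and was at 357, 403 and 743 normalized counts in the 3 pseudo-islets libraries (experiments 35, 36 and 37) and 513, 508 and 644 in the pseudo-beta libraries. It was lower in pseudo-islets in experiments 35 and 36 and higher in experiment 37, and the fitted log2 fold change was -0.22 (95% interval -0.81 to 0.38). *Foxo1* overlaps the antisense gene *Gm20402* and, on its own strand, *Gm38034*.

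*Tsc2* encodes the GTPase-activating subunit of the TSC complex, which holds the small GTPase Rheb inactive, and *Mtor* encodes the kinase that Rheb activates. *Tsc2* (chromosome 17, 24595816 to 24632630, minus strand) was at 223, 253 and 684 normalized counts in the pseudo-islets libraries and 244, 275 and 693 in the pseudo-beta libraries. It was lower in pseudo-islets in 3 of 3 experiments, by 0.13, 0.12 and 0.02 on the log2 scale, differences far smaller than the log2 range of 1.56 between experiments. *Mtor* (chromosome 4, 148448611 to 148557683, plus strand) was at 173, 221 and 331 in the pseudo-islets libraries and 206, 205 and 344 in the pseudo-beta libraries. Its libraries of experiment 37 again lay above the other 4. The fitted log2 fold changes were -0.09 (95% interval -1.13 to 0.95) for *Tsc2* and -0.07 (-0.74 to 0.61) for *Mtor*. *Tsc2* overlaps *Pkd1* and *Mtor* overlaps *Angptl7*, both protein-coding genes on the opposite strand. *Mtor* also overlaps the snRNA genes *Gm24002* and *Gm23318* on its own strand.

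With the block, the 95% intervals of 6 of the 10 genes (*Pdpk1*, *Akt1*, *Akt2*, *Foxo1*, *Tsc2* and *Mtor*) lay within a 1.5-fold change in either direction. For the other 4, both receptors and both adaptors, the interval reached past 1.5-fold on at least 1 side. *Insr*, *Igf1r* and *Tsc2* differed in 1 direction in all 3 experiments, and the remaining 7 genes did not.

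**Figure D3:**
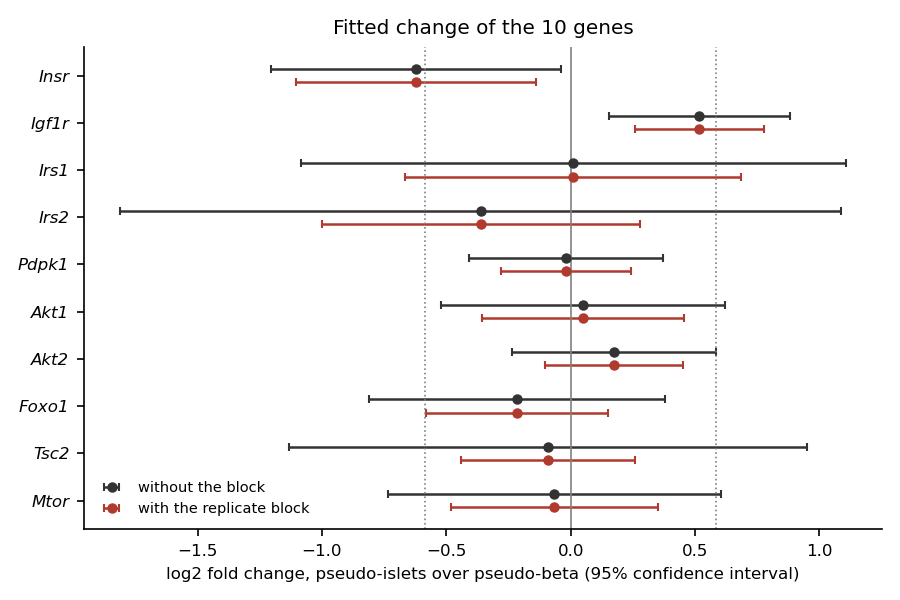
Fitted log2 fold change (x axis, pseudo-islets over pseudo-beta) of each of the 10 genes with its 95% confidence interval from limma, without the block in black and with the replicate block in red. Dotted lines mark 1.5-fold in either direction; intervals of *Insr* and *Igf1r* exclude 0 on opposite sides, and those of *Pdpk1* and *Akt2* stay between the dotted lines in both fits.

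Experiment 37 stood apart across the table. Both of its libraries were the highest or the lowest of the 6 for 31.6% of all genes, against 17.7% for experiment 35 and 13.5% for experiment 36. Among the 10 genes, both libraries of experiment 37 were the highest for *Irs2*, *Foxo1*, *Tsc2* and *Mtor* and the lowest for *Irs1* and *Pdpk1*. Against the mean of the other experiments on the log2 scale, they lay 3.91-fold higher for *Irs2*, 2.77-fold higher for *Tsc2*, 1.68-fold higher for *Mtor* and 1.57-fold higher for *Foxo1*. *Irs1* was at 0.414 of the level in the other experiments and *Pdpk1* at 0.804. The labels give no more about experiment 37 than its number, so its part in these levels was not tested.

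The sorted cells carried the beta-cell label well: all 9 beta-cell markers listed were present, *Ins1* between 980206 and 1399711 normalized counts, and 0 of them were called in either fit. Transcripts of other endocrine cells differed between the groups. *Gcg*, the glucagon gene of alpha-cells, was at 1763, 941 and 2094 normalized counts in the 3 pseudo-islets libraries (experiments 35, 36 and 37) and 36.1, 14.1 and 0 in the pseudo-beta libraries. *Sst*, the somatostatin gene of delta-cells, was at 190.2, 146 and 210.2 in the pseudo-islets libraries and 0, 0 and 4.74 in the pseudo-beta libraries. *Ppy*, of PP-cells, ran from 383 to 4172 in pseudo-islets and from 219 to 1650 in pseudo-beta. Summed alpha-cell markers (5 of 9 measured) were at 7567 to 11520 in pseudo-islets and 5026 to 6191 in pseudo-beta, summed delta-cell markers (2 of 5) at 369 to 532 and 249.5 to 273, and summed PP-cell markers (2 of 2) at 658 to 5500 and 328 to 2482. Of acinar, endothelial, stromal and immune markers, 0 of 5 each were measured. The part of these cells' RNA in the levels of the 10 genes was not tested, and in bulk samples fewer cells of a type and less RNA per cell cannot be told apart.

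To compare levels between genes, normalized counts were divided by the length of annotated exons. *Akt2* had the highest level, with 140.7 ± 22.6 normalized counts per kb (SD, n = 6 libraries). *Igf1r* followed with 119.7 ± 29.5 and *Akt1* with 103.3 ± 23.7. This pair changed places in pseudo-beta: *Igf1r* was at 141.3 and *Akt1* at 104.2 per kb in pseudo-islets, and at 98.2 and 102.4 in pseudo-beta (means, n = 3 each). The other 8 genes kept their places in either group. *Pdpk1* was at 74.9 ± 9.02, *Foxo1* at 60.9 ± 16.7 and *Tsc2* at 41.1 ± 23.7. The lowest levels per kb were those of *Mtor* at 24.4 ± 7.14, *Irs2* at 20.5 ± 15.6, *Insr* at 13.8 ± 4.26 and *Irs1* at 10.3 ± 4.81. Neighbours in this order overlapped in their range over the 6 libraries in every case. Farther apart they did not: the lowest library of *Igf1r*, at 87.9, lay above the highest library of *Insr*, at 20.5, so that the IGF receptor transcript was the more abundant receptor per length in all 6 libraries. With the longest coding transcript as the length, *Foxo1* and *Tsc2* changed places in the order of the 6-library means and the other 8 genes kept theirs. The levels themselves rest on the length chosen, and with this length were 220.8 for *Akt2*, 157.4 for *Akt1*, 114.4 for *Pdpk1* and 63.1 for *Tsc2*.

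**Figure D4:**
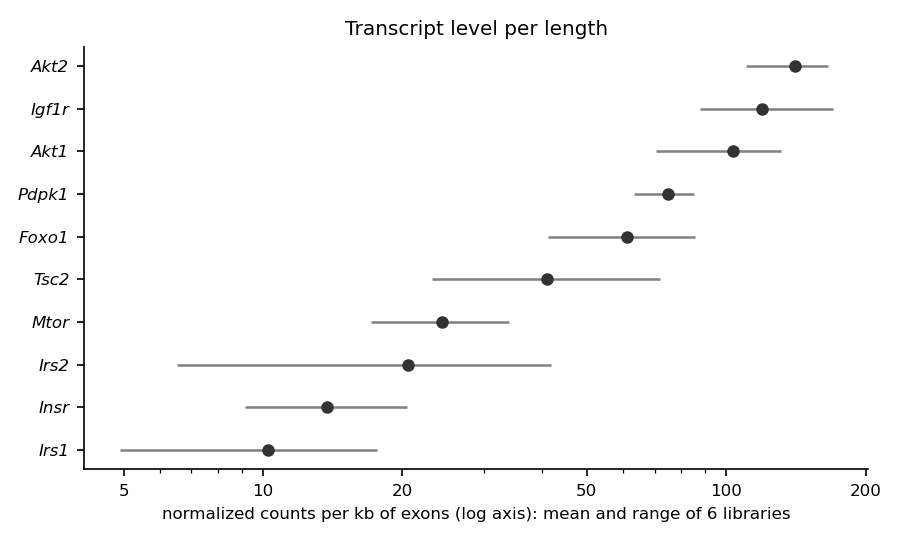
Mean (points) and range (lines) over the 6 libraries of normalized counts per kb of exons (x axis, log scale) for the 10 genes, ordered by mean. *Akt2*, *Igf1r* and *Akt1* lead with means of 103.3 to 140.7, *Insr* and *Irs1* are lowest with 13.8 and 10.3, and *Irs2* has the widest range, from 6.53 to 41.9.

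A wider list of 87 pathway genes, ordered by role, had 70 genes in the table, of which 0 were called without the block and 1, *Insrr*, with it. Of the 70, 31 had a log2 fold change above 0 and 39 below 0 (55.7%, against 48.6% of all genes), with a median of -0.05. Groups did not overlap for 8 of the 70 genes, 11.4% against 10.8% of all genes. Of the 8, 2 were higher in pseudo-islets (2.86% of the list, against 5.63% of all genes) and 6 lower (8.57%, against 5.13%). At an unadjusted p under 0.05, 5.71% of them passed without the block, against 5.40% of all genes, and 17.1% with it, against 11.9%.

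*Insrr* encodes the insulin receptor-related receptor, the remaining member of the family of *Insr* and *Igf1r*. It was at 1011, 1094 and 1347 normalized counts in the 3 pseudo-islets libraries (experiments 35, 36 and 37) and 1486, 1683 and 1891 in the pseudo-beta libraries. The groups did not overlap, and *Insrr* was lower in pseudo-islets in 3 of 3 experiments, as *Insr* was. Its log2 fold change was -0.56, with an adjusted p of 0.709 in limma without the block and 0.0418 with it, where 0.103% of all genes were called lower. The call was lost when any 1 experiment was left out (adjusted p 0.0953 to 0.173 in limma) and without the trend of the prior variance (0.51). At 248.3 ± 59.3 normalized counts per kb (SD, n = 6), the mean of *Insrr* over the 6 libraries lay above that of each of the 10 genes. The ratio of *Igf1r* to *Insrr*, also chosen after the values were seen, was 2.10-fold higher in pseudo-islets, with log2 differences of 1.39, 0.87 and 0.96 (SD 0.28). *Igf2r*, the clearance receptor for IGF-2, had a log2 fold change of 0.01 ± 0.22 (standard error). On its opposite strand *Insrr* overlaps *Pear1*.

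**Figure D5:**
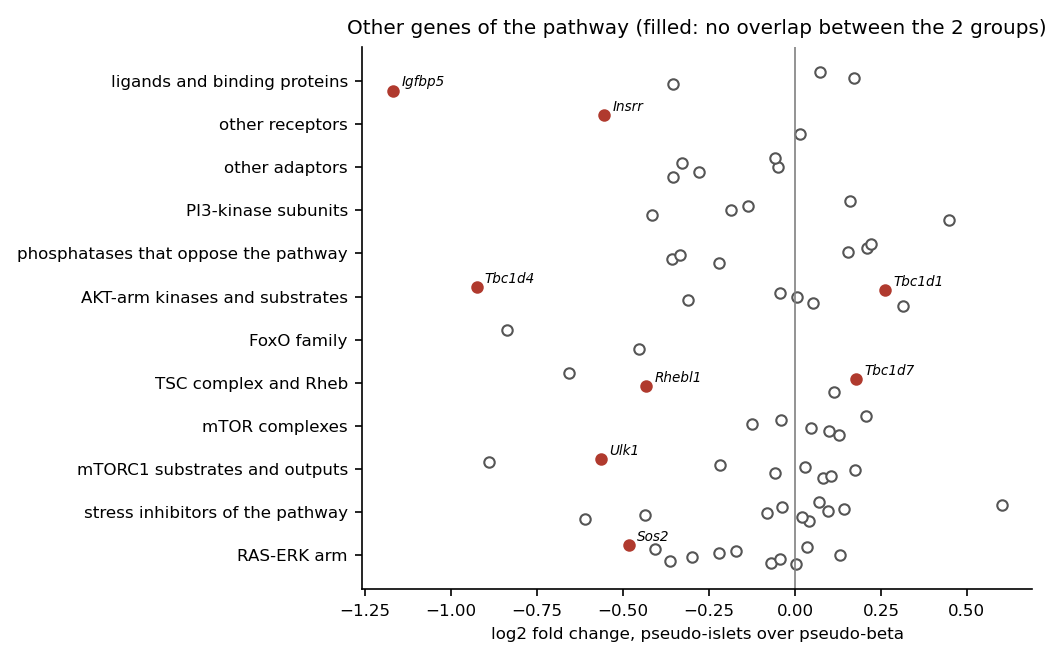
Fitted log2 fold change (x axis, pseudo-islets over pseudo-beta) of the 70 other pathway genes, in 1 row for each role, with filled and named points for the 8 genes whose groups did not overlap. Of these, 6 lie left of 0 (lower in pseudo-islets), led by *Igfbp5* at -1.17, and *Tbc1d1* and *Tbc1d7* lie right of it; vertical spread within a row only separates the points.

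Of 11 ligands and binding proteins 4 were measured and 0 were called. *Igfbp5*, a secreted IGF-binding protein, was at 61.2, 61.7 and 40.6 normalized counts in the pseudo-islets libraries and 155, 158 and 73.3 in the pseudo-beta libraries. It was lower in pseudo-islets in each experiment and its groups did not overlap (1 of 4 genes, 25.0%, against 10.8% of all genes). The log2 fold change was -1.17 (standard error 0.38), with an adjusted p of 0.811 in limma, or 0.149 with the block. *Ins1*, an insulin gene and so a ligand of the pathway, had a log2 fold change of 0.17 ± 0.15 (standard error). *Igf1* and *Igf2* were on the list but not among the 4 measured, so they were not analysed here.

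All 5 of the other adaptors measured, of 9 listed, had lower means in pseudo-islets, and 48.6% of all genes had a log2 fold change below 0. The 5 ran from -0.36 for *Grb10*, which binds and inhibits the receptors, to -0.05 for *Grb2*, which links them to SOS. Of these adaptors 0 were called, 0 passed an unadjusted p under 0.05 in either fit, and only *Grb10* was lower in every experiment. The 5 PI3-kinase subunits measured ran from -0.41 for the catalytic subunit *Pik3ca* to 0.45 for *Pik3c2a*, a class II enzyme, with standard errors of 0.43 and 0.26; without experiment 35 and with the block, *Pik3c2a* was at 0.0292, and without the pseudo-beta library of experiment 37 *Pik3ca* was at 0.0387. Of the phosphatases that oppose the pathway, 3 had higher and 3 lower means, between *Phlpp1* at -0.36 and *Ptpn2* at 0.22. The groups overlapped for all genes in these roles.

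Among 7 kinases and substrates of the AKT arm, *Tbc1d4* and *Tbc1d1*, which encode related Rab GTPase-activating proteins that AKT phosphorylates, had groups that did not overlap, in opposite directions (2 of 7 genes, 28.6%, against 10.8% of all genes). *Tbc1d4* was at 103, 110 and 145 normalized counts in the pseudo-islets libraries and 276, 184 and 226 in the pseudo-beta libraries, which gave a log2 fold change of -0.93 (standard error 0.26) with an adjusted p of 0.654 in limma, or 0.153 with the block. *Tbc1d1* was at 1156, 1213 and 1150 in the pseudo-islets libraries and 916, 944 and 1078 in the pseudo-beta libraries, which gave a log2 fold change of 0.26 (standard error 0.14). *Tbc1d1* lay outside the rule for naming genes and was singled out after its values were seen.

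*Foxo3*, a relative of *Foxo1*, was lower in pseudo-islets in 3 of 3 experiments, its log2 fold change was -0.45 (standard error 0.26), and its groups overlapped. In the TSC complex, *Tsc1* had a log2 fold change of -0.66 (standard error 0.37) and *Tbc1d7*, the partner of *Tsc1* and *Tsc2*, of 0.18 (standard error 0.18). *Tsc1* was at 255, 180 and 107 normalized counts in the pseudo-islets libraries and 254.7, 185 and 411 in the pseudo-beta libraries, so that experiments 35 and 36 differed little and experiment 37 gave the difference. *Rhebl1*, a relative of Rheb named only because its groups did not overlap, ran from 27.6 to 32.8 normalized counts in pseudo-islets and from 34.1 to 52.5 in pseudo-beta (log2 fold change -0.43, standard error 0.40). Components of the mTOR complexes lay between -0.13 for *Mlst8* and 0.21 for *Rptor*. Of 8 substrates and outputs of mTOR complex 1, 1 had groups that did not overlap (12.5%, against 10.8% of all genes). This was *Ulk1*, the kinase that starts autophagy, at 87.4, 101 and 116 in the pseudo-islets libraries and 166, 142 and 142 in the pseudo-beta libraries (log2 fold change -0.56, standard error 0.26). *Rps6*, a ribosomal protein gene, was the highest of that role with 0.17.

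Stress-induced inhibitors of the pathway ran from *Pik3ip1*, an inhibitor of PI3-kinase, at -0.61 (standard error 0.36) to *Trib2* at 0.60 (standard error 0.75), with 6 of 10 means higher in pseudo-islets. On the RAS-ERK arm 8 of 11 log2 fold changes were below 0 (72.7%, against 48.6% of all genes). Groups did not overlap for 1 of the 11 (9.09%, against 10.8% of all genes). This was *Sos2*, an exchange factor for RAS, at 211, 236 and 263 normalized counts in the pseudo-islets libraries and 340.1, 317 and 334 in the pseudo-beta libraries (log2 fold change -0.48, standard error 0.20, adjusted p 0.888 in limma, or 0.318 with the block). None of these genes was called in either fit.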

How the data were processed

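RNA-seq was measured in 6 libraries of sorted beta-cells. The deposited signal is normalized counts: the authors aligned read pairs of 75 bases to GRCm38 with STAR 2.7.6a, estimated counts with RSEM 1.3.1 and scaled them with DESeq2 1.26.0 (R 3.6.3, per the submitters' processing notes). The annotation release, any filter on low genes and the use of strand were not given in the sources used here. The values are not whole reads, so no count test was run and no depth or counting interval can be given; their precision is that of the standard errors, with a median of 0.27 over all genes. The deposited table also holds the authors' own comparison (mean signal, log2 fold change, its standard error, test statistic, p-value and adjusted p-value), which was not used.

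Samples were grouped by the labels. All 13535 genes were fitted on log2(normalized count + 1), with no filter, by limma 3.58.1 (R 4.3.3) with a trend of the prior variance and Benjamini-Hochberg adjustment. A fold change on this scale understates that of low genes. An exact permutation test of 3 against 3 libraries cannot go below a p of 0.1. Without the block the p-values rest on the spread between the 3 libraries of a group. With the block they rest on the spread of the 3 within-experiment differences. In both fits limma also draws on the spread over all genes. Deviations from the group means correlated at 0.119, 0.121 and 0.325 within experiments 35, 36 and 37 and at -0.203 to 0.0922 between experiments. The within-experiment values were over the minimum of 0.1, but for experiments 35 and 36 only narrowly. The experiment numbers were taken to pair the libraries, and the fit with the experiment as replicate block is given beside the other. Gene positions and exon lengths come from GENCODE M21 on GRCm38. The fit without the block was tested on data simulated with independent noise in each library and no difference between experiments. The fit with the block was not tested in this way.

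The 10 genes and the gene lists were chosen with earlier results of these data known. Besides the 10 genes, the text names any listed gene called in either fit, in each role the highest and lowest log2 fold change among genes whose mean normalized count was 50 or more, and leading markers; genes outside this rule whose groups did not overlap (*Tbc1d1* and *Rhebl1*) were named after their values were seen. Some genes that meet this rule are not reported here. Protein features of the 10 genes were not analysed here. The alternatives are the replicate block, pseudocounts of 0.5 and 10, a minimum of 10 normalized counts in every library, scaling without the 10 most abundant genes, quantile normalization, no prior trend, and leaving out libraries or experiments. Rescaling with the block and no trend with the block were added after the data had been seen.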

Additional observations from a re-analysis of the deposited data

How the results depend on the processing

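Calls among the 10 genes stayed at 0 under every alternative except the fit with the replicate block without experiment 36, which called *Igf1r*, so leaving out libraries or experiments gave 0 to 1. Among the other pathway genes, *Insrr* was called with the replicate block (1 gene) and with the block after scaling without the 10 most abundant genes (1 gene), and 0 were called under the remaining alternatives, leave-outs included; the block changed no other call. Over all genes, the block raised the calls from 8 to 73, scaling without the 10 most abundant genes, quantile normalization and no prior trend lowered them to 2, and no prior trend with the block gave 0 (1136 at an unadjusted p under 0.05). Leaving out 1 library gave 0 to 13 calls. Scaling without the 10 most abundant genes moved the median of all genes from 0.01 to -0.05 and turned the sign of *Irs1* (to -0.0471), *Akt1* (to -0.0088) and *Igf2r* (to -0.0435), with the block and without it.

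When libraries or experiments were left out, the log2 fold change of *Igf1r* was 0.36 to 0.65, of *Insr* -0.81 to -0.46 and of *Insrr* -0.67 to -0.47. That of *Foxo1* ran from -0.54 to -0.0117 (without the pseudo-islets libraries of experiments 37 and 35) and that of *Akt2* from 0.0422 to 0.34, 1 sign each but close to 0 at 1 end. Likewise wide were *Pik3c2a* (0.0292 without experiment 35, 0.86 without 37), *Tsc1* (-0.99 without experiment 35, -0.0206 without 37), *Phlpp1* (-0.57 to -0.0719, the latter without the pseudo-beta library of experiment 37), *Grb10* (-0.63 to -0.12) and *Pik3ip1* (-0.98 to -0.20), both nearest 0 without experiment 35, *Foxo3* (-0.68 to -0.25), *Ins1* (0.0615 to 0.26) and *Rps6* (0.0774 to 0.28). The log2 fold change crossed 0 for *Irs1* (-0.45 to 0.47), *Irs2* (-1.13 to 0.19), *Pdpk1* (-0.14 to 0.0744), *Akt1* (-0.20 to 0.30), *Tsc2* (-0.60 to 0.38) and *Mtor* (-0.32 to 0.18), and among the other genes for *Grb2* (-0.14 to 0.0379), *Igf2r* (-0.13 to 0.18), *Mlst8* (-0.40 to 0.11), *Pik3ca* (-0.92 to 0.0387), *Ptpn2* (-0.0028 to 0.49), *Rptor* (-0.22 to 0.60) and *Trib2* (-0.36 to 1.49). The cause of these changes was not tested. A fit without a library leaves 2 against 3, and 1 experiment fewer leaves 2 pairs. With standard errors of 0.16 to 0.65 for the 10 genes, differences of the size fitted for most of them were not detectable with 3 libraries a group.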
